A study of Mus musculus with 6 samples.

Results

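The genes described here encode the recombinase that cuts immunoglobulin genes and the core machinery that rejoins the ends. They are Rag1, Rag2, Prkdc, Dclre1c, Xrcc4, Xrcc5, Xrcc6, Lig4, Nhej1 and Atm, chosen by symbol from V(D)J cleavage and non-homologous end joining, and all 10 were found among the 49997 symbols of the count table. RNA came from small pre-B cells that were sorted from the bone marrow of C57BL/6 mice aged 6 to 12 weeks. A wild-type (WT) group was compared with a ΔrsCBE group, and each had 3 libraries. In the genotype name Δ stands for a deletion, which the title of the series ties to CTCF, a DNA-binding protein that shapes chromatin loops, and to receptor editing, in which a cell replaces the light chain of an autoreactive receptor by a further rearrangement. The labels give neither the deleted interval nor whether the libraries of a group came from separate animals, so p-values measure only the spread between these libraries, which may be in part technical.

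In V(D)J recombination, RAG1 and RAG2 form the nuclease that cuts at recombination signal sequences and leaves hairpin-sealed coding ends. Ku, a heterodimer of the Xrcc6 product Ku70 and the Xrcc5 product Ku80, binds the ends and recruits the kinase DNA-PKcs (Prkdc), which activates the nuclease Artemis (Dclre1c) to open the hairpins. XRCC4, DNA ligase IV (Lig4) and XLF (Nhej1) then seal the joint, while the kinase ATM stabilizes the broken ends and signals their presence. Small pre-B cells use this pathway to rearrange light chain genes, and receptor editing calls on it again.

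Total counts ranged from 428106 to 1300805 per library, and the detection floor of 3 counts equals 2.38 to 7.36 CPM (counts per library, scaled with TMM factors to a shared total). A list of 13 pre-B markers summed to 7707 to 9046 CPM in WT and 8554 to 9073 CPM in ΔrsCBE. Pax5 alone was at 2811 to 3651 CPM, and Vpreb2 was listed at 0, so not every marker was present. Of 13 such markers 10 were tested, and 0 passed an adjusted p of 0.05 in edgeR, against 1.69% of all tested genes. An unadjusted p under 0.05 was reached by 4, against 10.2%, and 2 had groups without overlap, against 16.1%. The log2 fold changes of these markers ran from -0.24 to 0.53, so equal marker levels are not shown. The 8 erythroid markers summed to at most 0.792 CPM in any library, with 7 of them listed at 0. The 10 T and NK cell markers summed to at most 9.81 CPM, with Cd3e, Cd3g, Cd8a and Trac among the 7 listed at 0. Sums were 53.1 to 83.4 CPM for 10 myeloid markers, 56.9 to 94 CPM for 5 plasma cell markers and 333 to 424 CPM for 7 mature B cell markers, and each overlapped between the genotypes. ΔrsCBE replicates 2 and 3 had 1603 and 1430 counts of Xist and 0 of 4 Y-linked genes, a female pattern, while the other 4 libraries had a male pattern, so the ΔrsCBE libraries did not all come from 1 animal. The WT group therefore has no female library, and sex and genotype can be told apart only through ΔrsCBE replicate 1. Igkc is listed at 0 in all 6 libraries, so light chain joining itself was not followed. Mitochondrial ribosomal RNA took 9.07% to 11.3% of counts in WT and 8.83% to 8.90% in ΔrsCBE, without overlap.

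Rag1 and Rag2 lie next to each other on chromosome 2 and are transcribed towards each other. Rag1 occupies chr2:101638282-101649501 on the minus strand and Rag2 chr2:101624718-101632529 on the plus strand (GENCODE M21, GRCm38). The 250 bases before the RefSeq start of each gene (GRCm38.p6, gene strand, chr2:101649533-101649782 and chr2:101624462-101624711) are shown because these neighbours encode one enzyme and yet had very different levels. Capitals mark matches on either strand to 4 motifs. The E-box CAGGTG is of the kind bound by E proteins such as the Tcf3 product. The CCAAT box was searched by those letters. The forkhead motif was searched as GTAAACA, and the cell-cycle homology region (CHR) as TTTGAA. No matches overlapped.
Rag1: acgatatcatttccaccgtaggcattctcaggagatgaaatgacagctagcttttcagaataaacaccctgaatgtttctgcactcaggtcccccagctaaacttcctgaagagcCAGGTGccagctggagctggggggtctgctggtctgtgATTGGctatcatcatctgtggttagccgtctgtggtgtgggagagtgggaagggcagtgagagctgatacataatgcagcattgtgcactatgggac
Rag2: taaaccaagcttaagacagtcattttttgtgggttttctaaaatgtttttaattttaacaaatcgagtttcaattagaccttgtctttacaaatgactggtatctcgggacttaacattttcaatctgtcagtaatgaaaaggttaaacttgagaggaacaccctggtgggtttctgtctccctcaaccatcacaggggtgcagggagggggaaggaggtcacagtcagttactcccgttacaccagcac
The Rag1 window held 1 CAGGTG, 135 to 130 bases before the start, and 1 CCAAT box on the opposite strand, 97 to 93 bases before it. The Rag2 window held none of the 4 motifs as searched. Other forms of the E-box were not searched in either window, so neither is a full count of E-boxes. Among the members the CCAAT box was also found for Atm, Dclre1c and Xrcc5, and the relation of any motif to the levels was not tested. Of 32851 windows of this length, 17.2% held the E-box, 33.8% the CCAAT box, 3.17% the forkhead motif and 16% the CHR letters, so the matches are common ones and are given as a description of the letters.

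Rag1, the catalytic subunit of the recombinase, had by far the most counts of the 10 genes. In replicate order, as throughout, the WT libraries held 2583, 3543 and 3620 CPM of it and the ΔrsCBE libraries 3197, 3809.5 and 3707 CPM. WT replicate 1 stood lowest, and the groups overlapped. On the log2 scale ΔrsCBE differed from WT by 0.14 (standard error, SE, 0.11, edgeR adjusted p = 0.754), and its 95% interval ran from -0.09 to 0.36, or 0.940-fold to 1.28-fold. Without WT replicate 1 it was -0.004. Rag2, the accessory subunit that reads methylated histone H3, was at 128, 140 and 133 CPM in WT and 108, 135 and 119 CPM in ΔrsCBE. Its WT libraries lay close together, and ΔrsCBE replicate 2 lay among them. The log2 fold change of Rag2 was -0.14 (SE 0.16, edgeR adjusted p = 0.838), with a 95% interval of -0.46 to 0.18.

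Because both genes were counted in the same libraries, their ratio is free of library scaling. There were 20.2, 25.4 and 27.2 Rag1 counts per Rag2 count in the WT libraries and 29.7, 28.1 and 31.2 in those of ΔrsCBE. The ratio groups did not overlap, although WT replicate 3 and ΔrsCBE replicate 2 were close. The mean log2 ratio was 4.58 ± 0.23 for WT (SD, n = 3) and 4.88 ± 0.07 for ΔrsCBE, and the gap of 0.30 had a two-sided exact permutation p of 0.1, the smallest that 3 libraries against 3 can give. Without WT replicate 1, the difference was 0.18 (exact two-sided permutation p = 0.2). Leaving out a library cannot make separate groups overlap.

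**Figure D1:**
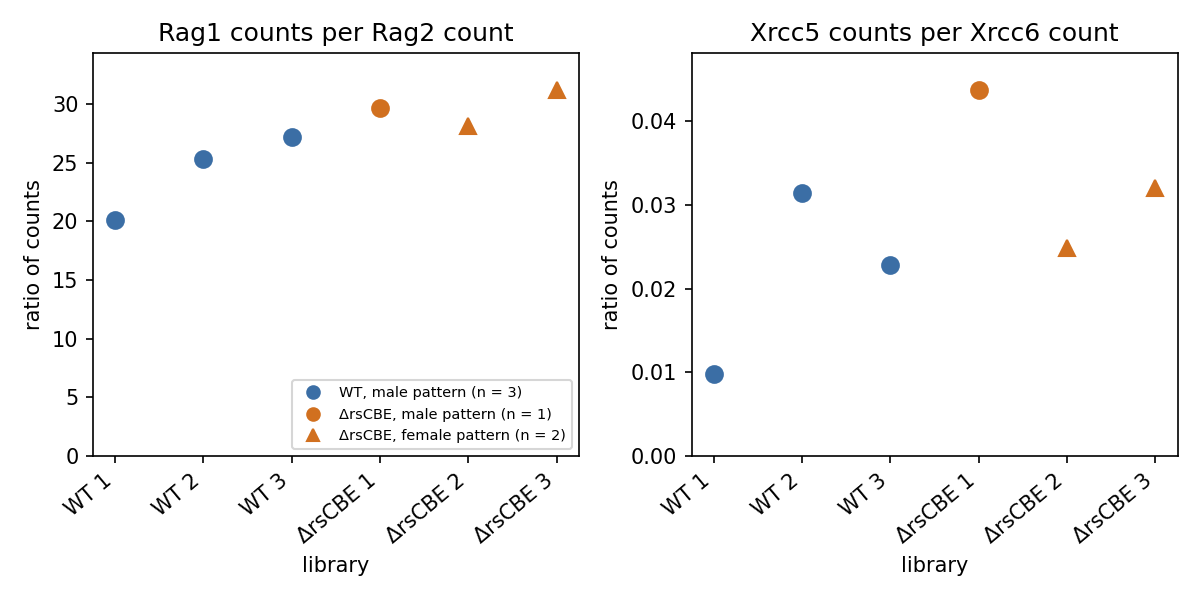
Counts of Rag1 per count of Rag2 (left) and of Xrcc5 per count of Xrcc6 (right), both axes from 0, with 1 point for each library. Circles are libraries with a male Xist and Y-linked pattern and triangles those with a female pattern, blue for WT and orange for ΔrsCBE. The Rag1 ratio runs from 20.2 to 27.2 in WT and from 28.1 to 31.2 in ΔrsCBE, and the Xrcc5 ratio overlaps between the groups.

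The subunits of Ku were counted very unequally. Xrcc6 (chr15:81987835-82040085, plus strand) was at 496, 547 and 554 CPM in WT and 387, 583 and 513 CPM in ΔrsCBE, where replicate 1 was the lowest of all libraries and replicate 2 the highest. Its log2 fold change was -0.11 (SE 0.13, edgeR adjusted p = 0.851), with a 95% interval of -0.37 to 0.15. Xrcc5 (chr1:72307421-72394952, plus strand) had 3, 7 and 16 counts in WT and 14, 14 and 13 in ΔrsCBE, or 4.87 to 17.2 and 14.5 to 16.9 CPM. With so few counts its log2 fold change of 0.48 had an SE of 0.42 (edgeR adjusted p = 0.774), and the interval of -0.38 to 1.35 reaches up to 2.54-fold. WT replicate 1 had 3 counts, the detection floor, and without it the log2 fold change of Xrcc5 was 0.18. Per Xrcc6 count there were 0.0098 to 0.0314 Xrcc5 counts in WT and 0.0248 to 0.0438 in ΔrsCBE. The difference in mean log2 ratio of 0.70 was within the spread between libraries (exact two-sided permutation p = 0.3).

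Prkdc and Dclre1c, whose products open the hairpins, also overlapped between the groups. Prkdc (chr16:15637866-15842235, plus strand) was at 114, 56.4 and 83.1 CPM in WT and 93.2, 61 and 66.9 CPM in ΔrsCBE. Among the WT libraries it varied more than between the group means, and its log2 fold change was -0.23 (SE 0.22, edgeR adjusted p = 0.796), with a 95% interval of -0.68 to 0.22. Without ΔrsCBE replicate 1 the log2 fold change of Prkdc was -0.44 and without WT replicate 1 it was -0.0063, neither past the threshold. Dclre1c (chr2:3424131-3464130, plus strand) was at 135, 135 and 151 CPM in WT and 165, 159 and 123 CPM in ΔrsCBE, with replicate 3 of ΔrsCBE below every WT library. Its log2 fold change was 0.07 (SE 0.16, edgeR adjusted p = 0.939), with a 95% interval of -0.25 to 0.39.

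Genes of the ligation complex overlapped between the groups as well. Lig4 (chr8:9969049-9977686, minus strand), the ligase itself, was at 165, 196 and 226 CPM in WT and 202, 171 and 207 CPM in ΔrsCBE, so that all ΔrsCBE libraries lay inside the WT range. The log2 fold change of Lig4 was -0.04 (SE 0.15, edgeR adjusted p = 0.972), with a 95% interval of -0.34 to 0.26. Xrcc4 (chr13:89774027-90089608, minus strand), the scaffold that holds the ligase, was lower, at 30.8, 24.5 and 25.3 CPM in WT and 19.4, 22.7 and 30.3 CPM in ΔrsCBE. Its log2 fold change was -0.16 (SE 0.31, edgeR adjusted p = 0.927), with a 95% interval of -0.79 to 0.48. Nhej1 (chr1:74967139-75125200, minus strand), which bridges the ends with XRCC4, had 4, 3 and 10 counts in WT and 3, 10 and 11 in ΔrsCBE. It did not pass the count filter and was not tested. In the fit without a filter, the log2 fold change of Nhej1 was 0.33 (SE 0.55, edgeR adjusted p = 0.886), and a difference in it was not detectable at this depth. Atm (chr9:53439149-53536740, minus strand) was at 167, 120 and 145 CPM in WT and 146, 162 and 121 CPM in ΔrsCBE. Its ΔrsCBE libraries all lay inside the WT range, and the log2 fold change was -0.02 (SE 0.16, edgeR adjusted p = 0.987), with a 95% interval of -0.35 to 0.31.

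**Figure D2:**
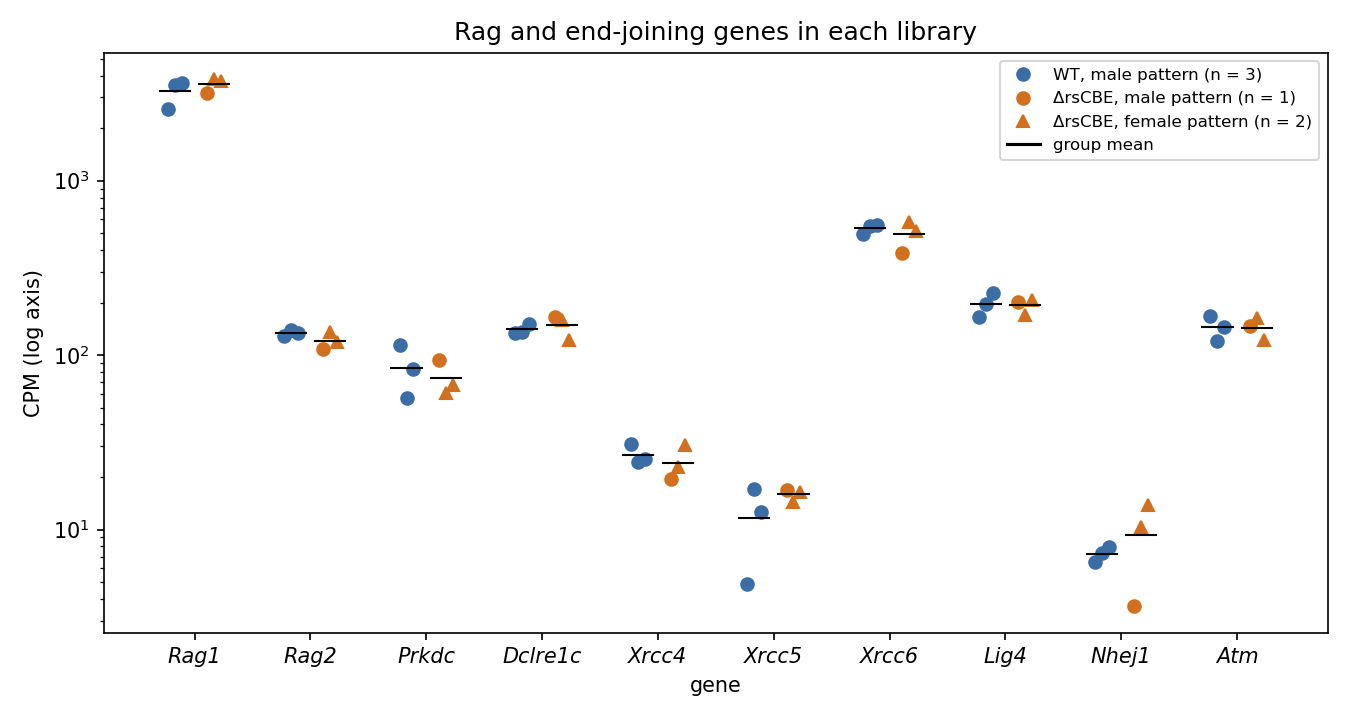
Level of each of the 10 genes in CPM (log axis) by library, with WT to the left (blue) and ΔrsCBE to the right (orange) of each gene. Circles have a male and triangles a female pattern, and bars are group means. For the 9 tested genes the groups overlap, and Xrcc5 and Nhej1 lie near the detection floor of 2.38 to 7.36 CPM.

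Of the 10 genes 9 were tested, and 0 of them passed an adjusted p of 0.05 in edgeR's quasi-likelihood test, against 1.69% of the 7792 genes tested (1.49% lower and 0.205% higher in ΔrsCBE). At an unadjusted p under 0.05 the count was also 0, against 10.2% of all tested genes, and 0 had groups without overlap, against 16.1%. DESeq2's Wald test, in which 96 genes of the whole table passed the threshold, likewise gave 0 members. It returned an adjusted p for 8 of the 10 genes, and 0 were at an unadjusted p under 0.05. The fitted log2 fold change was above 0 for 3 genes and below 0 for 6, with a median of -0.04, beside 0.01 over all tested genes. A p that misses the threshold does not show equal expression. The intervals allow at most 1.28-fold higher and 1.06-fold lower Rag1 in ΔrsCBE, and at most 1.14-fold higher and 1.38-fold lower Rag2.

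With sex as a covariate, where the genotype effect rests on ΔrsCBE replicate 1 against WT, the log2 fold change of Xrcc6 was -0.46 (edgeR adjusted p = 0.132), that of Rag2 -0.31 (edgeR adjusted p = 0.664) and that of Xrcc4 -0.47 (edgeR adjusted p = 0.778). Dclre1c was at 0.21 (edgeR adjusted p = 0.773) in that fit. The signs of Rag1, Prkdc, Lig4 and Atm turned, with values of -0.024, 0.11, 0.022 and 0.0058. None of these values passed the threshold.

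Levels of different genes were compared per kilobase of annotated exon, as means over all 6 libraries. Rag1 stood first at 516 ± 69 CPM per kb (SD, n = 6), followed by Xrcc6 at 115 ± 15.4 CPM per kb. Lig4 and Rag2 came next at 37.4 ± 4.39 and 37.1 ± 3.48 CPM per kb, and their ranges overlapped. Dclre1c at 15.5 ± 1.76 and Atm at 13.9 ± 1.92 CPM per kb overlapped as well. The 4 lowest levels were those of Nhej1 (7.4 ± 3.14), Xrcc4 (6.06 ± 1.05), Prkdc (5.99 ± 1.66) and Xrcc5 (5.38 ± 1.83 CPM per kb), and each overlapped its neighbours in the order. The ranges of Atm and Nhej1 also overlapped. Separate ranges divided Rag1 from Xrcc6, Xrcc6 from Lig4, and Rag2 from Dclre1c. The order was the same when the longest transcript replaced the union of exons, but the ranges of Dclre1c (from 17.32 CPM per kb) and Atm (up to 17.02 CPM per kb) were then separate. Per length there were 10.4 to 16.2 Rag1 counts for each Rag2 count, and 0.0172 to 0.0766 Xrcc5 counts for each Xrcc6 count.

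**Figure D3:**
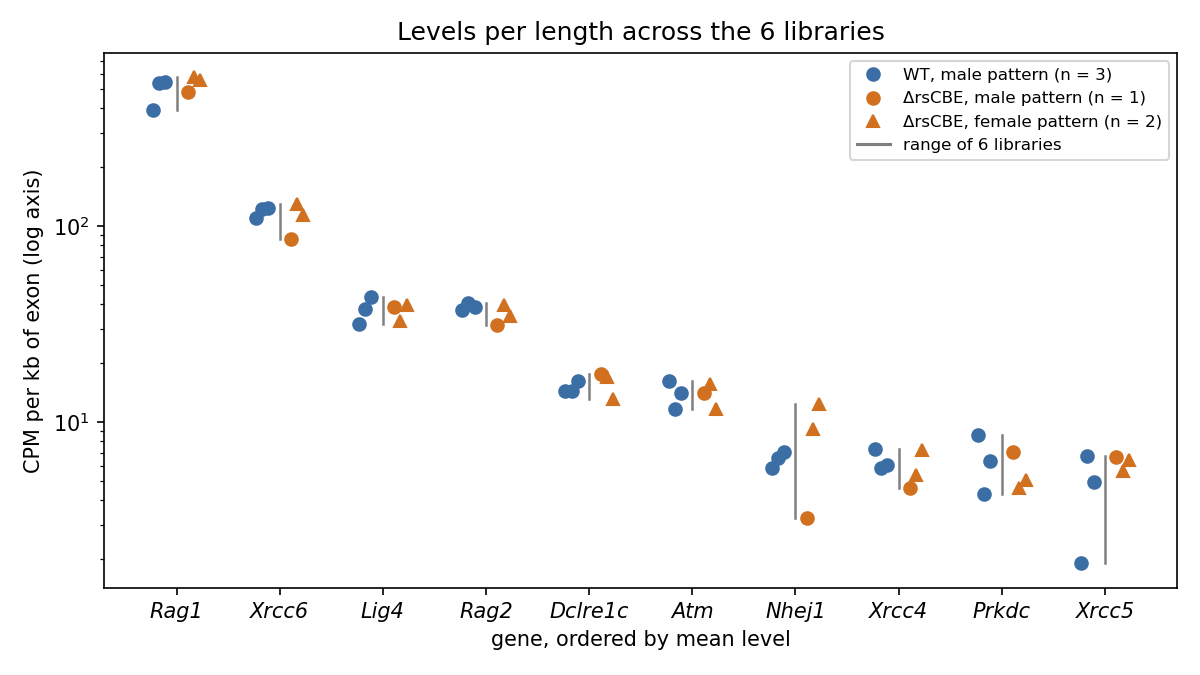
Level per kilobase of exon (log axis) for the 10 genes in order of their mean, with 1 point for each library and a grey line over the range of 6 libraries. Symbols and colours mark group and sex pattern as in the plot of levels by library. Rag1 at 516 CPM per kb stands apart from Xrcc6 at 115, and the 4 genes at the right overlap.

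Such levels depend on which reads could be assigned to a gene, and how reads with several matches were counted is not given in the sources used here. Gapdh, a housekeeping gene with many pseudogenes, had 0 to 3 counts per library although Actb had 3363 to 3977 CPM. In GENCODE M21 transcripts, 25.1% of the 50-base stretches of Gapdh recurred in transcripts of other genes. For Xrcc5, Prkdc, Lig4, Nhej1 and Atm the share was 0%. Most stretches of Gapdh did not recur either, although it had 0 to 3 counts. The share therefore does not tell how many reads a gene lost, and it cannot decide whether the low Xrcc5 level is accurate. The share was 0.503% for Rag1, 4.7% for Rag2, 2.32% for Dclre1c, 2% for Xrcc4 and 6.29% for Xrcc6. The stretches of Rag1 and Rag2 were shared with Iftap, which had 5 to 12 counts per library. GENCODE M21 lists it as B230118H07Rik and lets it span both genes, on the strand of Rag1, with 80 exonic bases in common with Rag1 and 208 with Rag2. Those of Xrcc6 were shared with Desi1, which overlaps it on the opposite strand and was at a mean of 103 ± 23.2 CPM for WT and 97.5 ± 13.9 CPM for ΔrsCBE (SD, n = 3). Dclre1c overlaps Suv39h2, which had 23 counts over the 6 libraries. Whether reads of the strands were separated is not stated for these counts. Xist had 1603 and 1430 counts in the female-pattern libraries, where Tsix on its opposite strand had 2 and 3. These counts do not decide it, since how reads over 2 genes were treated is not given.

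Some of the 10 genes start within 1 kb of a neighbour. Prkdc starts 466 bases from Mcm4, a subunit of the replicative helicase, Atm starts 307 bases from Npat, a coactivator of histone genes, and Lig4 starts 21 bases from Abhd13. Xrcc4 starts 485 bases from Tmem167, with which it overlaps. Mcm4 was at a mean of 119 ± 23.7 CPM for WT and 75.3 ± 23.2 CPM for ΔrsCBE (SD, n = 3), and the change of -0.62 on the log2 scale (SE 0.21, edgeR adjusted p = 0.182) did not pass the threshold. Without ΔrsCBE replicate 2 it did, at -0.89 (edgeR adjusted p = 0.0119), the only 1 of 13 alternatives in which it passed. Leaving out other libraries brought Mcm4 as near to 0 as -0.44. Prkdc, at the neighbouring start, was at -0.23, and the difference between the partners was not tested. The log2 fold changes of Npat, Abhd13 and Tmem167 were -0.15, -0.02 and -0.27, with edgeR adjusted p-values from 0.772 to 0.989. Of 7 genes around Rag1 and Rag2, 3 were tested. The threshold was passed by 0, against 1.69% of all tested genes, and an unadjusted p under 0.05 by 0, against 10.2%. Traf6, a ubiquitin ligase, was at -0.11, Trim44 at 0.12 and Commd9 at 0.52, with adjusted p = 0.857, 0.857 and 0.754 in edgeR.

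The 3 genes most like Rag1 over the 6 libraries, among 6408 with a mean of at least 20 CPM, were Acrbp (r = 0.991), Gm16580 (r = 0.985) and Chd1l (r = 0.983, Pearson correlations of log2 CPM). Like Rag1, each had its lowest value in WT replicate 1, as with Acrbp at 34.1 CPM there and 53.3 to 76.5 CPM elsewhere. Among those most like Rag2 were Armc10 (r = 0.985) and Pcm1 (r = 0.979), each lowest in ΔrsCBE replicate 1. These are the top of a ranking over 6 points, so high values occur by selection, and they are given with no test. The log2 fold changes of these 5 genes lay between -0.17 and 0.18, and 0 passed the threshold, against 1.69% of all tested genes.

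Regulators of Rag1 and Rag2 were compared next as a list of 18 genes, which holds transcription factors such as FOXO1, Ikaros and E2A (Tcf3) and the kinases Akt1 and Akt2, which restrain FOXO factors. Of the 17 tested, 0 passed the threshold, against 1.69% of all tested genes, and 1 had an unadjusted p under 0.05, against 10.2%. Above 0 were 13 of the 17, beside 51.8% of all tested genes. The median log2 fold change of the list was 0.07. The summed level was 19193 to 19666 CPM in WT and 20551 to 21405 CPM in ΔrsCBE and did not overlap. Among the 17 single genes 0 had groups without overlap, against 16.1% of all tested genes. Abundant genes weigh most in the sum, which includes Myb at a mean of 3288 CPM for WT and 4059 CPM for ΔrsCBE. The list also pools FOXO factors with kinases that restrain them, so its sum has no single meaning for Rag1 and Rag2. Myb, a transcription factor of early haematopoietic cells, was at 3199, 3227 and 3437 CPM in WT and 3423, 4367 and 4388 CPM in ΔrsCBE. ΔrsCBE replicate 1, the male-pattern library, lay within the WT range, and replicates 2 and 3 lay above it. The log2 fold change of Myb was 0.30 (SE 0.09, edgeR adjusted p = 0.123). Myb passed the threshold without ΔrsCBE replicate 1 (0.41, edgeR adjusted p = 0.00181) and with the CPM filter (0.33, edgeR adjusted p = 0.0298). With the sex covariate its value was 0.057 (edgeR adjusted p = 0.889). Foxo3 and Akt1 were at 0.29 and 0.23, with adjusted p = 0.557 and 0.585 in edgeR.

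End-processing genes around the core pathway formed the next list. Of its 13 genes 11 were tested and 0 passed the threshold, against 1.69% of all tested genes. At an unadjusted p under 0.05 there were 2, against 10.2% of all tested genes, and the median was -0.04. Polm, the polymerase that fills gaps in light chain joints, was at a mean of 205 ± 24.2 CPM for WT and 259 ± 38 CPM for ΔrsCBE (SD, n = 3), which is 0.32 on the log2 scale (SE 0.14, edgeR adjusted p = 0.397). Hmgb2, a DNA-bending protein that assists RAG cutting, was at -0.48 (SE 0.18, edgeR adjusted p = 0.257). It passed the threshold in only 1 of 13 alternatives, without ΔrsCBE replicate 2 (-0.74, edgeR adjusted p = 0.0141). Leaving out other libraries brought Hmgb2 as near to 0 as -0.34. Tdp1, which clears blocked ends, was at -0.66 (edgeR adjusted p = 0.549). Dntt, which adds untemplated nucleotides to joints, had 0 to 3 counts per library.

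The break response downstream of ATM held a gene that changed. H2ax (chr9:44334694-44336077, plus strand, GENCODE M21) encodes the histone variant that ATM and DNA-PKcs phosphorylate around a break. Its WT libraries held 167, 248 and 186 CPM and its ΔrsCBE libraries 79.9, 103 and 60.6 CPM. Every ΔrsCBE library lay below every WT library. H2ax fell by 1.26 on the log2 scale (SE 0.18, edgeR adjusted p = 0.000182), and passed the threshold in all 13 alternatives, with values from -1.47 to -1.10. Of the 16 genes on this list 11 were tested, 1 fell and 0 rose, against 1.49% and 0.205% of all tested genes. An unadjusted p under 0.05 was found for 2, against 10.2%, and the median was -0.08. Ppm1d, a phosphatase that ends the response, was at -0.45 (edgeR adjusted p = 0.458), and Chek2, a kinase target of ATM, at -0.60 (edgeR adjusted p = 0.673).

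Alternative end joining, which seals breaks without Ku and ligase IV, also held 1 gene that changed. Polq (chr16:37011786-37095417, plus strand, GENCODE M21), the polymerase that anneals short homologies in this route, was at 58.4, 76 and 77.6 CPM in WT and 31.5, 35.1 and 21.5 CPM in ΔrsCBE. The groups did not overlap. Polq fell by 1.26 on the log2 scale (SE 0.24, edgeR adjusted p = 0.00261). It did not pass the threshold with sex as a covariate (-1.18, edgeR adjusted p = 0.1) or without WT replicate 3 (-1.15, edgeR adjusted p = 0.0738). All 8 genes of the list were tested, 1 fell and 0 rose, against 1.49% and 0.205% of all tested genes. An unadjusted p under 0.05 was found for 2, against 10.2%, and the median was -0.22. Fen1, a flap nuclease also used in replication, was at -0.47 (edgeR adjusted p = 0.453), and Rbbp8, which starts end resection, at -0.41 (edgeR adjusted p = 0.543). The 250 bases before the RefSeq start of Polq (GRCm38.p6, chr16:37011536-37011785, plus strand) are shown because they held a TTTGAA, so the window was picked by its match. These CHR letters are found in promoters of many cell-cycle genes, and 16% of all windows held them. Of the 10 windows of 9 members 0 did, too few windows to set the members apart from that share. The match is given as a description of the letters, and its part in the Polq result was not tested. The match, in capitals, lies on the opposite strand, 242 to 237 bases before the start.
Polq: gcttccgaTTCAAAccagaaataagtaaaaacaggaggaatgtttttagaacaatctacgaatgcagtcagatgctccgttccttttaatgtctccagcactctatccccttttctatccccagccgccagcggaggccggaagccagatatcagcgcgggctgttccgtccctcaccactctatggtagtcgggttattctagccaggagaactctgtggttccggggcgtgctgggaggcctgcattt

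**Figure D4:**
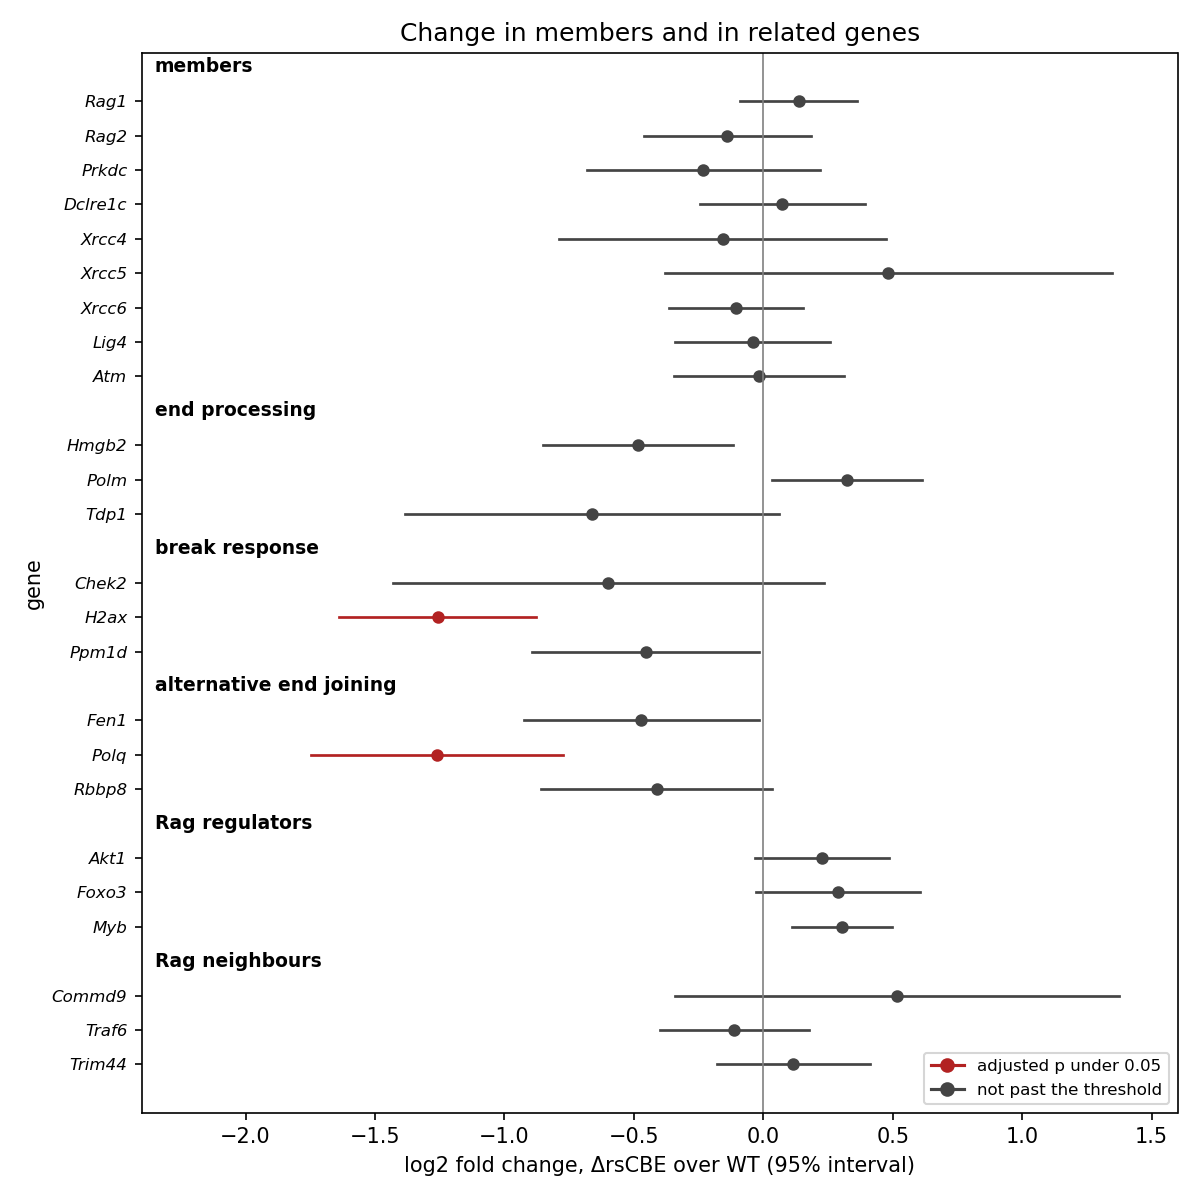
Log2 fold change of ΔrsCBE over WT with its 95% interval for the 9 tested members and for the genes named from the related lists, red where the adjusted p was under 0.05. H2ax and Polq, both at -1.26, are red, and the interval of each member crosses 0.

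Cell-cycle transcripts moved with H2ax and Polq. The list of 23 such genes was chosen with earlier results of these data known, so its counts are a description. All 21 tested genes were below 0, and the median log2 fold change was -1.07. Of the 21, 13 fell and 0 rose, against 1.49% and 0.205% of all tested genes. The summed level of the 23 genes was 6606 to 7256 CPM in WT and 3031, 4508 and 2823 CPM in ΔrsCBE replicates 1 to 3. ΔrsCBE replicate 2 had the highest sum, the highest H2ax and the highest Polq of its group, and replicate 3 the lowest of all 3. In bulk RNA, fewer cycling cells and less RNA per cycling cell cannot be told apart, and the part of the cell cycle in the H2ax and Polq results was not tested. The share of mitochondrial ribosomal RNA, 9.07% to 11.3% in WT and 8.83% to 8.90% in ΔrsCBE, also separated the groups, and its part in these results was not tested. The 10 members summed to 3831, 4787 and 4958 CPM in WT and 4338, 5128 and 4917 CPM in ΔrsCBE, with overlap between the groups.

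**Figure D5:**
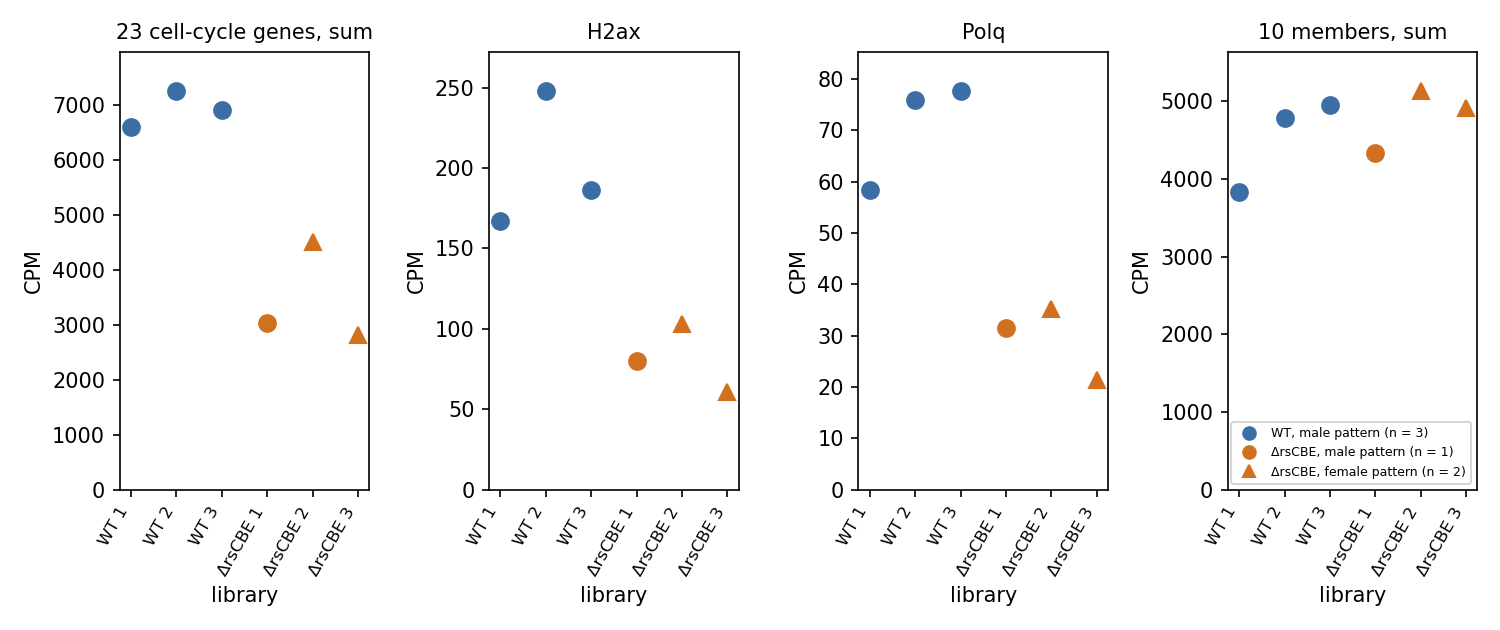
Summed CPM of 23 cell-cycle genes, CPM of H2ax, CPM of Polq and summed CPM of the 10 members in each library, on axes from 0. Blue is WT and orange ΔrsCBE, with triangles for the female pattern. The first 3 panels separate the groups, with cell-cycle sums of 6606 to 7256 CPM in WT and 2823 to 4508 CPM in ΔrsCBE, and the last does not.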

How the data were processed

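RNA was profiled in 6 libraries, 3 WT and 3 ΔrsCBE. Per the labels' protocols, 1 µg of DNase-treated RNA from sorted pre-B cells was depleted of ribosomal RNA and prepared with a strand-specific total RNA kit. The authors deposited unnormalized read counts, as whole numbers for each gene symbol. Per the submitters' processing notes, Trim Galore 0.6.10, STAR 2.7.11, HTSeq, DESeq2 and the mm10 build were used; their settings, the annotation and any filter are not given in the sources used here. Columns were matched to samples by library name.

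The model was fitted on the whole table with edgeR 4.0.16 (R 4.3.3), after filterByExpr (minimum count 10) left 7792 genes, with TMM scaling (factors 0.978 to 1.02), glmQLFit with robust estimation and glmQLFTest. P-values were Benjamini-Hochberg adjusted over all tested genes, with a threshold of 0.05. CPM refers to TMM-scaled totals of the tested genes. Log2 ratios used a pseudocount of 0.5 and exact two-sided permutation tests (scipy 1.17.1), and counting floors cover counting error only. Exon lengths and positions came from GENCODE M21 (GRCm38) and promoter windows from a RefSeq table with windows for 9 of the 10 members. The script was tested on simulated counts. Replicates of a group differed by more than counting noise (chi-square over its degrees of freedom 1.78 to 3.18).

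The members and lists were chosen with earlier results of these data known. The promoter motifs and the search for shared 50-base stretches were chosen after values were seen. Named besides the members are list genes past the threshold, the 3 smallest unadjusted p-values of each list, genes that overlap or start within 1 kb of a member, and the 3 genes most like Rag1 and Rag2. A marker and a gene that this rule names are not reported here. Alternatives were the scaling (DESeq2 1.42.0 size factors or library size alone), the DESeq2 Wald test, no count filter, a CPM of at least 1 in 3 libraries, a replicate block, a sex covariate and each library left out.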

Additional observations from a re-analysis of the deposited data

How the results depend on the processing

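The count of members past the threshold was 0 in the reported fit and in all 13 alternatives. For all tested genes the count of 132 became 87 with the sex covariate and 59 to 187 with 1 library left out, the lowest without WT replicate 3 or without ΔrsCBE replicate 3; the cause was not tested. No paired origin is given for the replicate numbers, and deviations of same-numbered libraries correlated at 0.0131, 0.0197 and 0.00908. Over all pairs across the groups the values ran from -0.0472 to 0.0345, the highest for WT replicate 1 with ΔrsCBE replicate 3. Values this near 0, at this depth, cannot decide whether the numbers mark a shared origin. The replicate block gave 136 genes in place of 132 and 0 members.

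Among the 117 recomputed fold changes of the 9 tested members, 105 kept their sign and 12 turned, all of them short of the threshold, and the cause was not tested. With the sex covariate Rag1 turned to -0.024, Prkdc to 0.11, Lig4 to 0.022 and Atm to 0.0058, and with the CPM filter Atm turned to 0.0012. With 1 library left out, the values ran from -0.004 to 0.23 for Rag1, -0.0056 to 0.19 for Dclre1c, -0.15 to 0.11 for Lig4, -0.12 to 0.085 for Atm and -0.24 to 0.040 for Xrcc6. Outside the members, the sex covariate turned Abhd13 to 0.49, Acrbp to -0.17, Desi1 to 0.026, Gm16580 to -0.067 and Tmem167 to 0.099. Leaving out 1 library gave -0.36 to 0.24 for Abhd13, -0.077 to 0.41 for Acrbp, -0.26 to 0.044 for Desi1 and -0.017 to 0.20 for Gm16580. Neither ratio turned in its 8 alternatives. Differences were 0.18 to 0.40 for Rag1 to Rag2 and 0.27 to 1.04 for Xrcc5 to Xrcc6. Most of these alternatives could not have turned Rag1 to Rag2. Its groups did not overlap, so leaving out 1 library cannot change the sign, and a replicate block leaves the mean difference of either ratio unchanged. Without WT replicate 1 the difference for Xrcc5 to Xrcc6 was 0.27. Depth limits Xrcc5 and Nhej1 most.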
